A study of Sus scrofa with 56 samples.

Results

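A set of 8 genes of cholesterol and fatty acid synthesis and their control were followed in peripheral blood mononuclear cells of sows: SREBF2, SREBF1, INSIG1, HMGCS1, IDI1, SQLE, FASN and ABCA1. They were taken by symbol from the 24358 Ensembl gene IDs of the deposited files, where all 8 symbols were found, and all 8 had enough reads to be tested in every comparison.

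Cells make cholesterol from acetyl-CoA through the mevalonate pathway and fatty acids through fatty acid synthase, and both routes are switched on by sterol regulatory element-binding proteins, the products of SREBF1 and SREBF2. When sterols are plentiful, INSIG proteins hold these factors in the endoplasmic reticulum and synthesis genes are transcribed less, while liver X receptors raise the transcription of efflux pumps such as ABCA1. Lymphocytes draw on these routes to build membrane when they divide, and monocytes and macrophages use the efflux arm to unload sterol.

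The samples came from 28 sows that had farrowed before, on day 98 of gestation (called G98) and again on day 11 after the start of lactation (called L11), with 28 libraries per stage. Housing was conventional (C) or enriched (E), with 14 libraries of each per stage. Low parity sows (LP, in gestation 2 or 3) gave 15 libraries at G98 and 14 at L11, and high parity sows (HP, the 4th gestation or later) gave 13 and 14. Rank was dominant (Dom), intermediate (Int) or subordinate (Sub), with 9, 11 and 8 libraries at G98 and 11, 9 and 8 at L11. The work was done in 2 rounds, called replicates R1 and R2 by the labels, and each round gave 14 libraries per stage. The sows of R1 and R2 were different animals except that T82133 and T82157 gave an L11 library in both. A sow's G98 and L11 libraries of the same replicate make up 26 pairs, 14 in R1 and 12 in R2. G98 and L11 libraries carry separate series of library codes in the labels, and any effect of stage cannot be told apart from that of the library series. Dominant sows were mostly HP (8 of 9 at G98) and subordinate sows mostly LP (7 of 8), so rank and parity largely overlap.

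Library totals ran from 18096881 to 25302994 estimated counts. The lowest count of any of the 8 genes in a library was 166, for SQLE, and the highest was 9047, for INSIG1. Levels are CPM, counts scaled to a common library size by TMM, and differences are log2 fold changes with a standard error (SE), tested by the quasi-likelihood method of edgeR, with p adjusted by Benjamini-Hochberg over all genes tested, and called at an adjusted p of at most 0.05. The markers of T cells (CD3E, median 522 to 659 CPM in the 4 stage and replicate groups) and monocytes (CD14, 36.9 to 77.8 CPM) were present in every library group. Erythroid markers were present too and uneven: the sum of 9 of them had a median of 14171 CPM at G98 in R1, 2156 at G98 in R2, 385 at L11 in R1 and 1304 at L11 in R2. The L11 library of the dominant HP sow T83888 (C housing, R2) stood apart, with a sum of 6 macrophage markers of 1624 CPM against at most 32.1 in the other R2 libraries at L11, and a sum of 9 monocyte markers of 9910 against at most 3457. In bulk samples, fewer cells of a type and less RNA per cell cannot be told apart.

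Per transcript length, SREBF2 was the most abundant of the 8, with a median of 103 TPM (transcript abundance corrected for length, the authors' values) at G98 and 72.6 at L11. FASN followed at 41.9 and 28.7 TPM, then IDI1 (31.7 and 27.9), INSIG1 (31.0 and 44.7) and SREBF1 (26.5 and 23.96). SQLE had 14.1 and 8.95 TPM, HMGCS1 10.6 and 8.75, and ABCA1 5.77 and 5.47. The ranges over the 56 libraries of genes next to each other in this order overlapped, from 49.1 to 139 TPM for SREBF2 and from 11.2 to 57.0 for FASN at the top, and from 4.80 to 16.8 for HMGCS1 and from 2.70 to 12.8 for ABCA1 at the bottom. INSIG1 ran from 13.9 to 188 TPM, with a median that stood above that of FASN at L11 and below it at G98.

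The first question was how the genes differ between late gestation and lactation in the same sow. In lactation SREBF2, SQLE and FASN were lower and INSIG1 was higher, while HMGCS1, IDI1, SREBF1 and ABCA1 did not pass the test over all 26 pairs. SREBF2 and FASN were lower in 26 of 26 pairs, and the share of all genes that moved one way in every pair was not counted. Of all 12349 genes tested 56.6% were called in this comparison, 28.4% higher and 28.2% lower, so 4 called of 8, with 1 higher and 3 lower, is close to the background.

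The calls were not the same in the 2 replicates. In R1, 5 of the 8 genes fell and none rose, against a background of 38.2% of genes called (19.3% higher, 18.9% lower). In R2, SREBF2 and FASN fell while INSIG1 and IDI1 rose, against a background of 54.6% (27.1% higher, 27.5% lower). The difference between the replicates in the stage change, R2 minus R1, was above 0 for all 8 genes, with a median of 0.29 log2 units beside −0.0048 over all genes, and it was called for SREBF2, SREBF1 and INSIG1. Of all genes 20.9% were called in that test, 11% with the higher value in R2 and 9.82% with the lower.

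**Figure D1:**
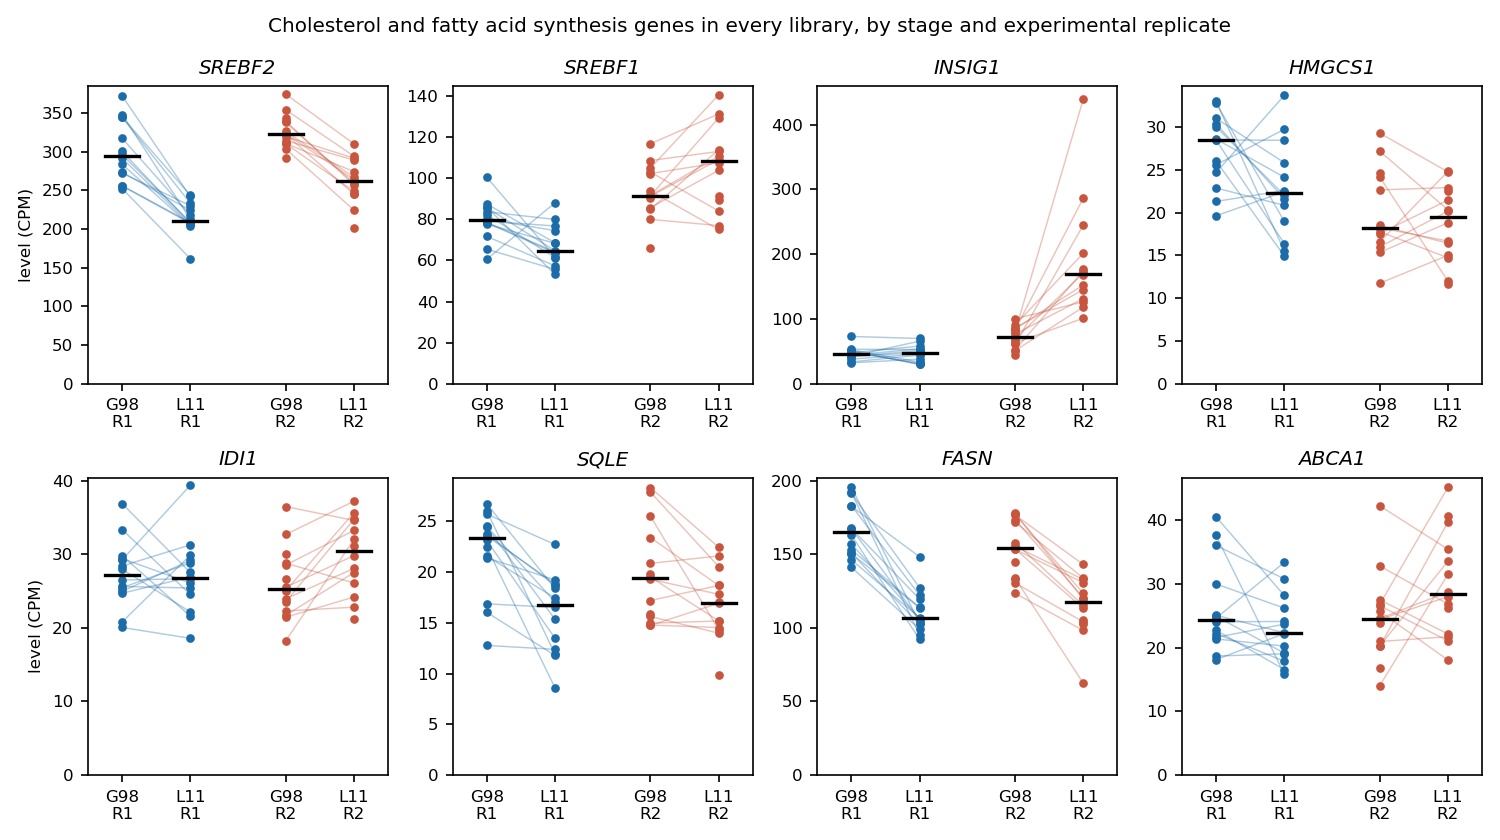
Level of each of the 8 genes in every library (vertical axis, CPM from 0), by stage and replicate (R1 blue, R2 red), with thin lines joining a sow's pair and black bars at the medians. SREBF2 and FASN lines all go down, and the INSIG1 points of L11 in R2 (101 to 439 CPM) lie above all other groups.

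Among the regulators, SREBF2, which acts mostly on cholesterol synthesis genes, lay in R1 between 252 and 372 CPM at G98 (median 294, n = 14) and between 162 and 244 at L11 (median 211, n = 14). These groups did not overlap, and the share of all genes without overlap was not counted. In R2 it lay between 292 and 374 at G98 (median 323) and between 201 and 310.1 at L11 (median 262), and 12 of the 14 L11 libraries were below the lowest G98 library. SREBF2 fell by 0.39 on the log2 scale over all pairs (SE 0.03, adjusted p = 2.51e-10), by 0.48 in R1 (SE 0.04, adjusted p = 1.22e-09) and by 0.29 in R2 (SE 0.04, adjusted p = 2.31e-06). The fall was smaller in R2 by 0.19 (SE 0.06, adjusted p = 0.0211), a call that was lost when no filter on low counts was used (adjusted p = 0.0626). Its gene spans 6719484 to 6784724 on chromosome 5 of Sscrofa11.1.

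SREBF1, the partner factor that acts mostly on fatty acid synthesis genes and is itself a liver X receptor target (chromosome 12, 60733967 to 60750951), ranged from 60.6 to 101 CPM at G98 in R1 (median 79.7) and from 53.3 to 88.1 at L11 (median 64.5). In R2 the ranges were 66.2 to 117 at G98 (median 91.7) and 75.1 to 141 at L11 (median 108). The ranges overlapped between stages in both replicates. SREBF1 fell in R1 (log2 fold change −0.26, SE 0.07, adjusted p = 0.00717), where it was lower in 13 of 14 pairs. In R2 it was higher in 9 of 12 pairs with a log2 fold change of 0.15 (SE 0.08, adjusted p = 0.114), which passed the test without sow T83888 (0.19, adjusted p = 0.0441) or without the R2 pair of sow T454 (0.19, adjusted p = 0.0486). The change in R2 exceeded that in R1 by 0.41 (SE 0.11, adjusted p = 0.00850), and over all pairs the value was −0.07 (SE 0.07, adjusted p = 0.381).

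INSIG1, which encodes the sterol-sensitive retention protein of the pathway and is a target of the same factors (chromosome 18, 2885494 to 2898758), had the largest stage change of the 8 genes, and it was seen in R2. In R1 it lay between 31.95 and 72.7 CPM at G98 (median 45.7) and between 29.4 and 69.6 at L11 (median 46.6). In R2 it lay between 43.5 and 99.96 at G98 (median 72.5) and between 101 and 439 at L11 (median 169). Every L11 library of R2 was above every G98 library of R2 and above every L11 library of R1. How many of all genes separate these groups was not counted. The highest value was that of sow T83888, and the next was 286 CPM. INSIG1 rose in R2 by 1.26 log2 units (SE 0.15, 2.39-fold, adjusted p = 7.79e-08), in 12 of 12 pairs, and the value in R1 was −0.02 (SE 0.14, adjusted p = 0.927), with 8 of 14 pairs higher. The replicates differed by 1.28 (SE 0.20, adjusted p = 7.84e-05). Without sow T83888 the rise in R2 was 1.15 (SE 0.14, adjusted p = 1.54e-07), the difference between replicates 1.17 (adjusted p = 9.81e-05), and the value over all pairs went from 0.57 (SE 0.16, adjusted p = 0.00277) to 0.50 (adjusted p = 0.00425).

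Markers of other cell types moved with stage in R2 alongside INSIG1, by count of calls. In R2, 6 of 6 plasma cell markers and 7 of 9 monocyte markers rose, against 0 of 6 and 2 of 9 in R1. The summed level of the plasma cell markers went from 151 to 258 CPM at G98 in R2 (median 191) to 262 to 532 at L11 (median 333), and from 162 to 504 (median 322) to 207 to 482 (median 368) in R1. The summed monocyte markers ran from 1136 to 2359 CPM at G98 in R2 and from 1746 to 9910 at L11 in R2, with medians of 1823 and 2156. The 9910 was that of sow T83888. In R1 they ran from 1156 to 2942 CPM at G98 (median 2268) and from 1753 to 2805 at L11 (median 2212). The R2 median at L11 was thus not above that of R1 at either stage. Of the other lists, in R2 3 of 6 macrophage, 3 of 3 granulocyte, 4 of 7 dendritic cell and 4 of 7 NK and cytotoxic markers rose, and 4 of 8 erythroid and 4 of 7 T cell markers fell. In R1 the same lists gave 0 of 6, 3 of 3, 4 of 7 and 4 of 7 that rose, and 8 of 8 and 3 of 7 that fell. In each replicate 1 dendritic cell and 1 NK and cytotoxic marker fell, and 1 T cell marker rose. Of all genes 27.1% rose in R2 and 19.3% in R1. The stage change was higher in R2 than in R1 for 6 of 6 plasma cell, 4 of 8 erythroid, 1 of 6 macrophage and 0 of 9 monocyte markers. Their part in the INSIG1 result was not tested.

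**Figure D2:**
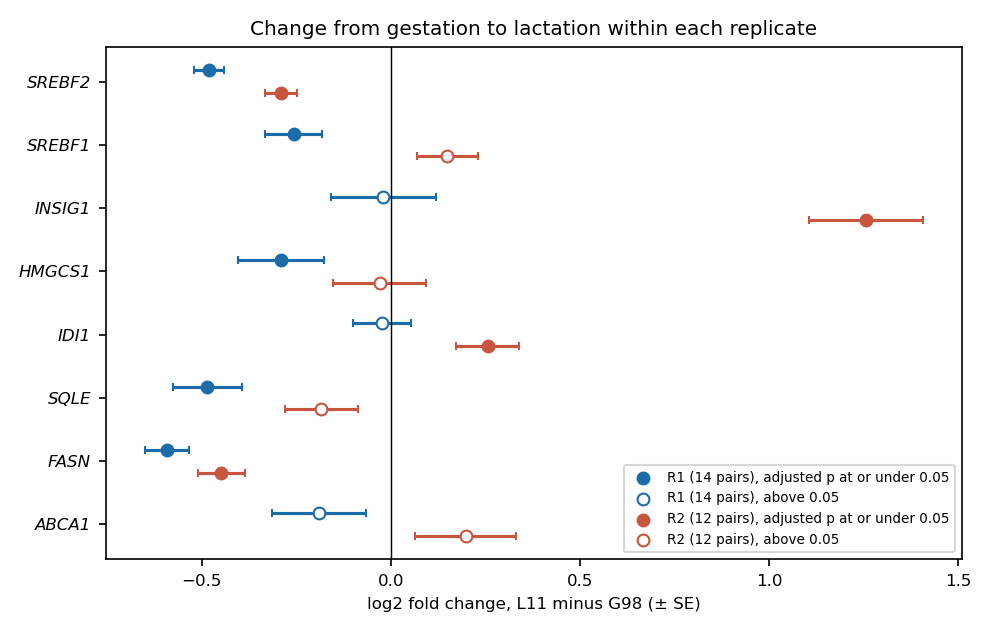
Log2 fold change from G98 to L11 (horizontal axis, ± SE) for each gene in R1 (blue, 14 pairs) and R2 (red, 12 pairs). Filled points have an adjusted p of at most 0.05, and for all 8 genes the R2 point lies to the right of the R1 point.

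Of the enzymes of sterol synthesis, HMGCS1 makes the HMG-CoA that feeds the mevalonate pathway (chromosome 16, 27936225 to 27957261). It had 19.6 to 33.04 CPM at G98 in R1 (median 28.5) and 14.9 to 33.7 at L11 (median 22.3), and in R2 11.7 to 29.3 at G98 (median 18.3) and 11.7 to 24.8 at L11 (median 19.5). The groups overlapped throughout. HMGCS1 fell in R1 (log2 fold change −0.29, SE 0.11, adjusted p = 0.0426), but this was a borderline call: it was lost on leaving out any of 8 of the 14 R1 pairs (adjusted p between 0.0548 and 0.106) and with no filter on low counts (0.0502). In R2 the value was −0.03 (SE 0.12, adjusted p = 0.857), and over all pairs it was −0.17 (SE 0.09, adjusted p = 0.0892), which passed on leaving out the R2 pair of T454 (0.0433) or the R1 pair of T93157 (0.0494).

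IDI1, the isomerase that prepares the isoprenoid unit downstream of mevalonate, had 20.1 to 36.9 CPM at G98 in R1 (median 27.2) and 18.6 to 39.4 at L11 (median 26.8). In R2 it had 18.2 to 36.5 at G98 (median 25.3) and 21.3 to 37.2 at L11 (median 30.5), with overlapping groups. IDI1 rose in R2 by 0.26 (SE 0.08, adjusted p = 0.0112), in 10 of 12 pairs, and the value in R1 was −0.02 (SE 0.08, adjusted p = 0.838), with 7 of 14 pairs higher. The difference between replicates was 0.28 (SE 0.11, adjusted p = 0.0820), and it passed without the R1 pair of T82133 (0.32, adjusted p = 0.0436).

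SQLE, the squalene epoxidase of the sterol branch (chromosome 4, 14669789 to 14700152), lay between 12.8 and 26.7 CPM at G98 in R1 (median 23.3) and between 8.59 and 22.7 at L11 (median 16.8). In R2 it lay between 14.7 and 28.3 at G98 (median 19.4) and between 9.86 and 22.4 at L11 (median 17.0). In each replicate 4 of 14 L11 libraries were below all G98 libraries. SQLE fell over all pairs (−0.35, SE 0.07, adjusted p = 0.000154) and in R1 (−0.48, SE 0.09, adjusted p = 0.000116), where it was lower in 14 of 14 pairs. In R2 it was lower in 8 of 12 pairs with a value of −0.18 (SE 0.10, adjusted p = 0.111), and the difference between replicates was 0.30 (SE 0.13, adjusted p = 0.107).

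FASN, the fatty acid synthase (chromosome 12, 922405 to 937560), lay between 141 and 196 CPM at G98 in R1 (median 165) and between 92.2 and 148 at L11 (median 107), with 13 of 14 L11 libraries below every G98 library. In R2 it lay between 124 and 178 at G98 (median 155) and between 62.5 and 143 at L11 (median 117), with 9 of 14 below every G98 library. FASN fell by 0.53 over all pairs (SE 0.04, 0.695-fold, adjusted p = 1.34e-10), by 0.59 in R1 (SE 0.06, adjusted p = 1.52e-08) and by 0.45 in R2 (SE 0.06, adjusted p = 9.12e-07). The difference between replicates was 0.14 (SE 0.09, adjusted p = 0.242), and it was called without sow T83888 (0.20, adjusted p = 0.0473), whose L11 library held the lowest FASN value of the series at 62.5 CPM.

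ABCA1, the pump that exports cholesterol from the cell (chromosome 1, 246144277 to 246278492), was not called between stages. It had 18.1 to 40.6 CPM at G98 in R1 (median 24.4), 15.9 to 33.4 at L11 in R1 (median 22.3), 14.04 to 42.3 at G98 in R2 (median 24.5) and 18.1 to 45.2 at L11 in R2 (median 28.4). The log2 fold changes were −0.01 (SE 0.10) over all pairs, −0.19 (SE 0.12, adjusted p = 0.233) in R1 and 0.20 (SE 0.13, adjusted p = 0.214) in R2, and the difference between replicates was 0.39 (SE 0.18, adjusted p = 0.131).

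The replicates were next compared within a stage, with housing and parity as covariates. At G98, SREBF1 (log2 fold change R2 minus R1 0.24, SE 0.07, adjusted p = 0.0106) and INSIG1 (0.64, SE 0.12, adjusted p = 0.000139) were higher in R2 and HMGCS1 was lower (−0.46, SE 0.11, adjusted p = 0.00164). These are 2 higher and 1 lower of 8, where 40.7% of all genes were called, 19.3% higher and 21.3% lower in R2. At L11, SREBF2 (0.28, SE 0.06, adjusted p = 0.000161), SREBF1 (0.65, SE 0.09, adjusted p = 2.21e-06), INSIG1 (2.02, SE 0.18, 4.04-fold, adjusted p = 3.04e-10) and ABCA1 (0.39, SE 0.13, adjusted p = 0.0178) were higher in R2 and none was lower, where 43.3% of all genes were called, 22% higher and 21.3% lower. SREBF2 was above the highest R1 library in 12 of the 14 R2 libraries at L11, and SREBF1 in 11 of 14. At G98 the SREBF2 value of 0.11 (adjusted p = 0.0654) passed with DESeq2's size factors, with a stricter filter, with erythroid genes left out of the scaling and in DESeq2 itself, at adjusted p between 0.0375 and 0.0473. Cell type markers differed between replicates as well. At G98, 7 of 8 erythroid, 3 of 9 monocyte, 3 of 6 plasma cell and 3 of 6 cycling cell markers were lower in R2. Of 7 T cell markers, 3 were higher there and 1 was lower. At L11, 3 of 5 macrophage and 2 of 9 monocyte markers were higher in R2, and 0 of 5 erythroid markers were called. In R2 at L11, 3 of 7 T cell and 3 of 6 plasma cell markers were higher, and 1 of each was lower. Their part in these differences was not tested beyond the scaling without erythroid genes. The R2 group at L11 holds the library of sow T83888, with its 1624 CPM of macrophage markers. The comparison of replicates at L11 was not repeated without it.

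The next question was whether parity, housing or rank changes the shift from gestation to lactation. No gene of the 8 differed in its stage change between HP and LP, between E and C, or between Dom and Sub sows, and neither did any other gene (0% of 12349 called in each). Without adjustment, 262, 877 and 359 of all genes had p below 0.05 in the 3 tests, and 0, 1 and 0 of the 8. SREBF2 and FASN fell in every subgroup taken alone. The SREBF2 changes ran from −0.36 (SE 0.06) in Dom sows to −0.43 (SE 0.06) in Int sows, and the FASN changes from −0.48 (SE 0.06) in LP sows to −0.57 (SE 0.07) in HP sows.

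The member with p below 0.05 was IDI1 in the housing test. In C sows IDI1 was higher at L11 in 12 of 13 pairs (log2 fold change 0.31, SE 0.07, adjusted p = 0.000719), and in E sows in 5 of 13 pairs (−0.10, SE 0.07, adjusted p = 0.266). The difference E minus C was −0.41 (SE 0.10, unadjusted p = 0.000269) and did not survive adjustment over all genes (adjusted p = 0.386).

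Within subgroups, 5 of the 8 genes were called in C (45.3% of all genes) and 4 in E (36.8%). SREBF2, SQLE and FASN were called in both, IDI1 and INSIG1 (0.76, SE 0.22, adjusted p = 0.00521) rose in C, and HMGCS1 fell in E (−0.33, SE 0.12, adjusted p = 0.0283). SQLE in C (−0.25, adjusted p = 0.0390) lost its call without sow T83888 (−0.24, adjusted p = 0.0619). In HP sows 3 were called, SREBF2, SQLE and FASN (37.1% of all genes), and in LP sows these and INSIG1 (0.63, SE 0.21, adjusted p = 0.0193; 42.6%). By rank, 4 were called in Dom (31.7%), 2 in Int (28.1%) and 2 in Sub (30.2%). INSIG1 was higher in 8 of 8 Sub pairs, and its change in Int (0.66, adjusted p = 0.0738) and Sub sows (0.64, adjusted p = 0.0861) passed without sow T83888 (adjusted p = 0.0368 and 0.0457), a dominant sow that enters these values through the shared estimate of spread. That a gene passed in one subgroup and not in the other does not show a difference between them, and the tests of the differences are those above.

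Within a stage, none of the 8 genes was called for parity, housing or rank. For parity, HP minus LP, 1.47% of all genes were called at G98 (180) and 0.179% at L11 (22). With the replicate as a block these counts were 357 and 37, still with none of the 8. For housing, E minus C, 0.00815% (1 gene) were called at G98 and 0% at L11. For rank, Dom minus Sub, 0% were called at both stages. At an unadjusted p below 0.05 there were 735 genes for housing at L11, 1814 for rank at G98 and 1191 for rank at L11, and DESeq2 called 0, 218 and 59. Among the 8, the unadjusted count was 1, SREBF2, for parity at G98, 1, FASN, for parity at L11, 1, IDI1, for housing at G98, 0 for housing at L11, and 1, SREBF2, for rank at each stage.

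SREBF2 came closest to a call with rank. At G98 dominant sows had 256 to 322 CPM (median 284, n = 9), intermediate sows 252 to 348 (median 317, n = 11) and subordinate sows 314 to 374 (median 345, n = 8). At L11 the ranges were 201 to 249 (median 224, n = 11), 162 to 291 (median 218, n = 9) and 233 to 310.1 (median 262, n = 8). Dominant and subordinate sows overlapped in part at both stages. The log2 fold change Dom minus Sub was −0.30 (SE 0.06, unadjusted p = 8.50e-05, adjusted p = 0.0774) at G98 and −0.28 (SE 0.09, adjusted p = 0.279) at L11. At G98 DESeq2 called it (−0.29, adjusted p = 0.00405), and with the replicate block it was not called (−0.27, adjusted p = 0.0780). With housing, parity, rank and the replicate block together it was −0.22 (SE 0.07, adjusted p = 0.662) at G98.

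Within R1 at G98 the dominant sows (256 to 296 CPM, n = 6) and the subordinate sows (344 to 372, n = 3) did not overlap, and within R2 they did (304 to 322, n = 3, against 314 to 374, n = 5). At L11 they did not overlap within R1 (204 to 230.1, n = 6, against 233 to 244, n = 3). Nor did they within R2 (201 to 249, n = 5, against 257 to 310.1, n = 5), although R2 holds second libraries of T82133 and T82157, labelled dominant there and intermediate in R1. These groups are small, and the share of all genes without overlap in them was not counted. The rank test at L11 called 0 of 12613 genes. For parity at G98, HP sows had 252 to 374 CPM (median 292, n = 13) and LP sows 272 to 372 (median 338, n = 15), a difference of −0.16 (SE 0.06, adjusted p = 0.129). In the joint fit with the replicate block the parity value at G98 was −0.07 (SE 0.06, adjusted p = 0.652), beside the rank value of −0.22 above, and neither was called.

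**Figure D3:**
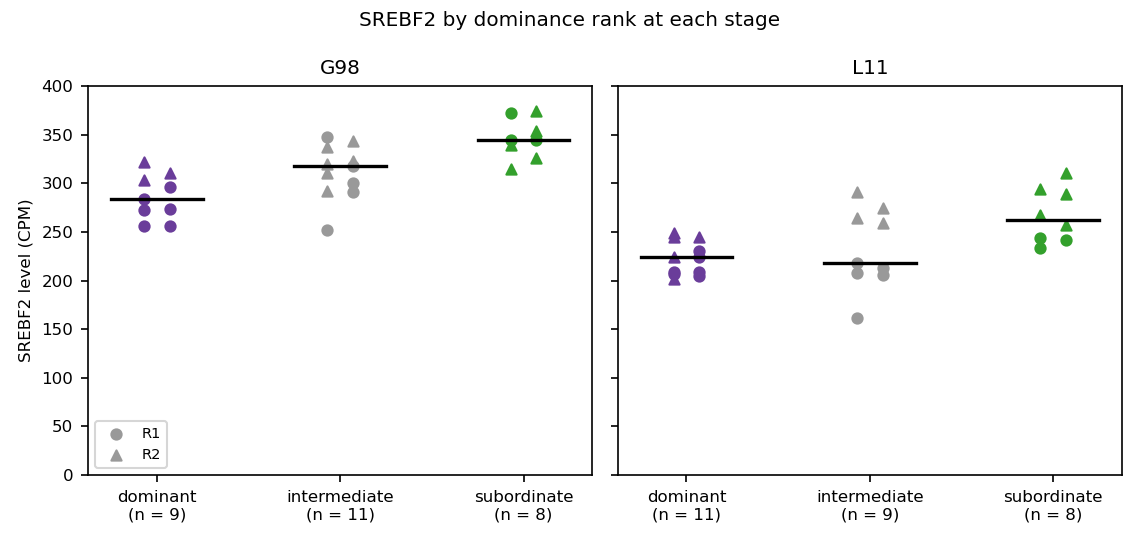
SREBF2 level (vertical axis, CPM from 0) in each library by rank, at G98 (left) and L11 (right), with circles for R1, triangles for R2 and black bars at the medians. Subordinate sows have the highest medians (345 and 262 CPM), and the ranks overlap.

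The other genes showed smaller rank and parity differences or wider errors. For FASN the parity values were −0.12 (SE 0.07, adjusted p = 0.348) at G98 and −0.21 (SE 0.08, adjusted p = 0.496) at L11. INSIG1 at L11 had values of 0.28 (SE 0.40) for parity, −0.34 (SE 0.40) for housing and 0.40 (SE 0.51) for rank, over libraries that ranged from 29.4 to 439 CPM. With the replicate as a block, the INSIG1 values at L11 were 0.15 (SE 0.17), −0.38 (SE 0.17) and 0.49 (SE 0.19), with the lowest adjusted p, 0.267, for rank, and with all 3 factors and the block the parity value was −0.07 (SE 0.21). IDI1 differed by housing at G98 by 0.19 (SE 0.09, adjusted p = 0.949) and at L11 by −0.14 (SE 0.10, adjusted p = 0.873).

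The rest of the lipid pathway was read from 5 lists. Of 16 other enzymes of the mevalonate and sterol route that were tested, 4 rose and 4 fell between stages over all pairs, with a median log2 fold change of −0.09 beside 0.0037 for all genes. Of all genes 28.4% rose and 28.2% fell, so this count is no higher than the background. In R1, 1 rose and 7 fell (median −0.11; 19.3% and 18.9% of all genes), and in R2, 5 rose and 2 fell (median 0.075; 27.1% and 27.5%). LBR, a nuclear membrane protein with sterol reductase activity, fell by 0.32 (SE 0.04, adjusted p = 4.16e-07), with 3 of 26 pairs higher. Mevalonate kinase MVK fell by 0.31 (SE 0.06, adjusted p = 0.000157), while the sterol ketone reductase HSD17B7 rose by 0.39 (SE 0.06, adjusted p = 1.05e-06).

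The stage change of 5 of the 16 enzymes was higher in R2 than in R1 and of none lower, where 11% of all genes were higher and 9.82% lower. Among them, named after their values were seen, were SC5D (0.58, SE 0.17), EBP (0.44, SE 0.15), ACAT2 (0.36, SE 0.11) and NSDHL (0.25, SE 0.08).

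Of 13 genes of sterol uptake and control of the binding proteins, 2 rose and 4 fell over all pairs (median −0.023), where 56.6% of all genes were called. SCAP, the escort of the binding proteins to the Golgi, fell by 0.21 (SE 0.04, adjusted p = 2.40e-05), and MBTPS1, the protease that cleaves them there, by 0.14 (SE 0.03, adjusted p = 6.86e-05). FAF2, a protein of degradation at the endoplasmic reticulum, rose by 0.39 (SE 0.04, adjusted p = 3.33e-08).

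Of 16 further genes of fatty acid synthesis and desaturation, 2 rose and 9 fell over all pairs (median −0.089), with 0 and 8 in R1 and 1 and 3 in R2. The shares of all genes that rose and fell were 28.4% and 28.2% over all pairs, 19.3% and 18.9% in R1, and 27.1% and 27.5% in R2. The fatty acid desaturase FADS2 fell by 0.45 (SE 0.04, adjusted p = 3.82e-10), with 0 of 26 pairs higher, from a median of 23.2 to 17.6 CPM. The stearoyl-CoA desaturase SCD fell by 0.44 (SE 0.09, adjusted p = 0.000190), and the glycerolipid enzymes GPAM and LPIN1 fell by 0.38 (SE 0.07, adjusted p = 6.93e-05) and 0.23 (SE 0.06, adjusted p = 0.00175).

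On the efflux side, 5 of 11 tested genes of liver X receptor signalling, efflux and storage rose over all pairs and 1 fell (median 0.20), a count near the 56.6% of all genes that were called. In R1, 3 rose and 1 fell, and in R2, 4 rose and 0 fell. Over all pairs the receptors NR1H2 and NR1H3 rose by 0.20 (SE 0.03, adjusted p = 3.95e-06) and 0.56 (SE 0.13, adjusted p = 0.000849). The phospholipid enzyme LPCAT3 rose by 0.37 (SE 0.06, adjusted p = 9.83e-06) and the cholesterol hydroxylase CH25H by 0.64 (SE 0.13, adjusted p = 0.000170). CH25H lay between 0.772 and 5.83 CPM at L11. Its median went from 1.69 CPM at G98 to 3.58 at L11 in R1, and from 1.72 to 1.83 in R2. NR1H3 reached 82.8 CPM at L11 against a median of 16.8. Of 15 genes of fatty acid oxidation, 8 rose and 3 fell over all pairs (median 0.12), again beside 28.4% and 28.2% of all genes. In R1, 3 rose and 2 fell, and in R2, 8 rose and 2 fell. Of all genes 19.3% rose and 18.9% fell in R1, and 27.1% and 27.5% in R2. Those that rose over all pairs included the electron transfer flavoprotein subunits ETFA (0.39, SE 0.06, adjusted p = 1.00e-05) and ETFB (0.46, SE 0.08, adjusted p = 2.03e-05). The carnitine palmitoyltransferase CPT1A (0.67, SE 0.18, adjusted p = 0.00245) and the carnitine carrier SLC25A20 (0.45, SE 0.12, adjusted p = 0.00299) rose too. The lists are described by counts and medians, and none was tested as a set.

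**Figure D4:**
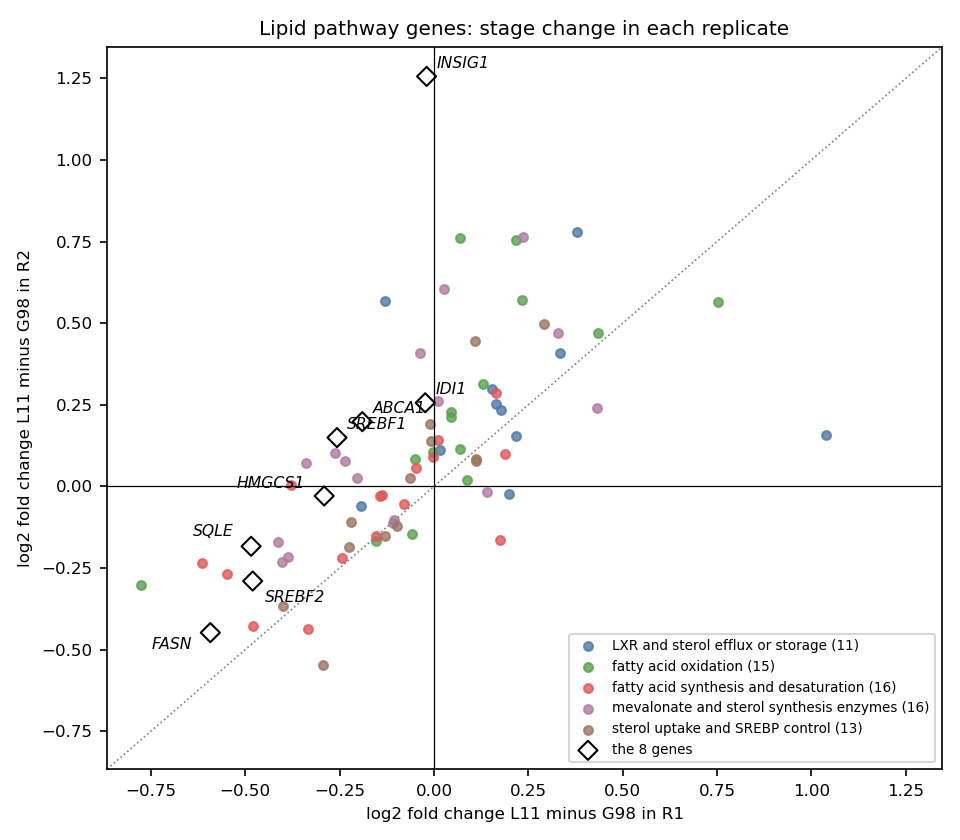
Log2 fold change from G98 to L11 in R1 (horizontal axis) and R2 (vertical axis) for the 8 genes (diamonds) and the genes of 5 lipid lists (coloured points), with a dotted line of equality. The 8 genes lie above the line, from FASN (−0.59 and −0.45) to INSIG1 (−0.02 and 1.26).

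Of the list genes, 2 were called for parity, both at G98: SCAP (HP minus LP −0.26, SE 0.06, adjusted p = 0.0280) and LPIN1 (−0.24, SE 0.05, adjusted p = 0.0266). None was called for parity at L11, for housing or for rank by edgeR.

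How far the 8 genes vary together among sows was described by Spearman's rho over the 56 libraries, on log2(CPM + 0.5) centred within the 4 groups of stage and replicate. Most sows enter with 2 libraries and all libraries share the scaling, so no p is given. Among the 3 sterol enzymes rho was 0.76 for HMGCS1 and SQLE, 0.61 for HMGCS1 and IDI1 and 0.51 for IDI1 and SQLE. SREBF2 had a rho of 0.49 with FASN and 0.08 with HMGCS1, and SREBF1 had 0.49 with FASN. INSIG1 and ABCA1 had 0.52, and INSIG1 and SREBF2 had −0.24.

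**Figure D5:**
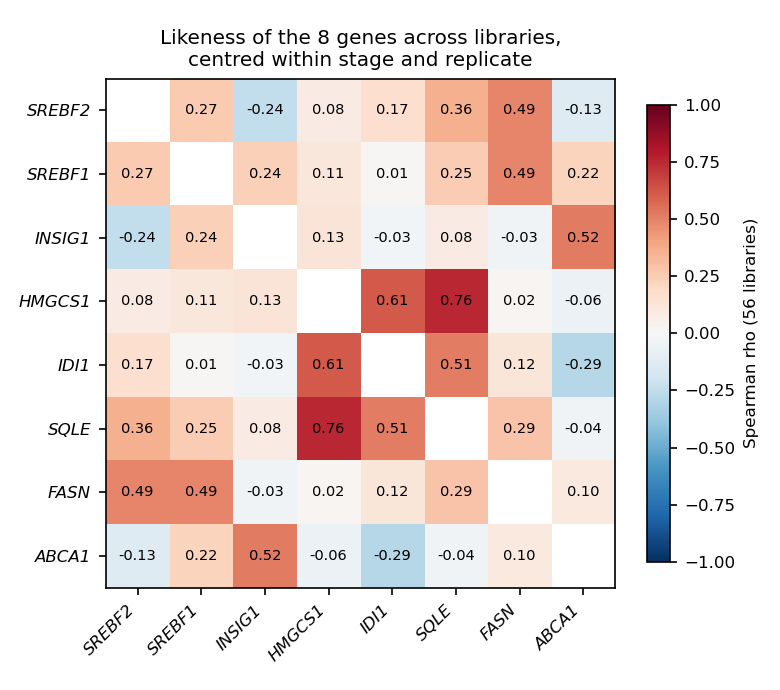
Spearman's rho for each pair of the 8 genes over 56 libraries, centred within stage and replicate (red positive, blue negative). HMGCS1, IDI1 and SQLE form a group with rho of 0.51 to 0.76, and INSIG1 is most like ABCA1 (0.52).

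Among 9992 genes with a symbol and a mean of at least 1 CPM, those most like the sterol enzymes were enzymes of the same route and, for SQLE, also the desaturase SCD. HMGCS1 was most like MSMO1 (rho 0.80; 0.67 at G98 and 0.86 at L11), CYP51A1 (0.78) and SQLE (0.76). SQLE was most like CYP51A1 (0.81, and 0.81 at each stage), SCD (0.76) and HMGCS1, and IDI1 was most like SC5D (0.64), HMGCS1 (0.61) and CYP51A1 (0.57). SREBF1 was most like ABCG1, a sterol transporter (0.66; 0.60 and 0.67), KLF15 (0.51; 0.17 and 0.73) and SCD (0.50; 0.27 and 0.67), and for KLF15 and SCD the value at L11 was the higher.

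The remaining genes had other neighbours. SREBF2 was most like KLK7 (0.68), PIK3C2B (0.67) and GATA3 (0.66), the last a transcription factor of T cells. INSIG1 was most like IRS2, an insulin receptor substrate (0.71; 0.53 at G98 and 0.80 at L11), the transcription factor CEBPB (0.70) and the leukocyte receptor ADGRE5 (0.70). FASN was most like PHGDH (0.69), ATP11A (0.68) and ABCC1 (0.65), and ABCA1 was most like GP91-PHOX, a subunit of the phagocyte oxidase (0.78), PRKCD (0.77) and ALDH1L2 (0.76).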

How the data were processed

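RNA from 56 libraries of 28 sows was sequenced from QIAseq stranded mRNA libraries, per the labels' protocols. The submitters' processing notes name DESeq2, R 4.1.2 and the build Sscrofa11.1. For the quantifier, the name was not given in the sources used here. Per the file headers, the authors deposited estimated counts per gene, not normalised, and TPM. Estimated counts were rounded to whole numbers (4.61% were not whole). The deposited TPM values were used only to order levels between genes. Coordinates are RefSeq gene spans of Sscrofa11.1, counted from 1. How reads shared with near-identical copies were assigned is not given, so such genes are uncertain.

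Tests used edgeR 4.0.16 in R 4.3.3 (TMM, filterByExpr, glmQLFit and glmQLFTest, 2-sided, Benjamini-Hochberg over all genes, threshold 0.05). The stage model held 1 term for each of the 26 pairs of libraries of a sow in a replicate. Within a stage, replicate was fitted with housing and parity, parity with housing, housing with parity, and rank with housing. DESeq2 1.42.0, other scalings and filters, a replicate block and each pair left out in turn were alternatives. Members and gene lists were chosen with earlier results of these data known. Named list genes are the up to 4 called ones of smallest p per list, and any called for parity, housing or rank. Some genes that this rule names are not reported here.

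The replicate number marks a shared run of the experiment in the series' design text. After centring within stage, G98 libraries correlated with L11 libraries of other sows at 0.14 on average within a replicate. Across replicates the mean was −0.16, with the pairs of T82133 and T82157 included. Centring ties these means together, so the negative value follows from the positive ones. All 75 pairs of libraries within a group differed beyond sampling noise (lowest chi-square per degree of freedom 19.3). Nothing states more than that libraries come from separate animals or times. In the stage fits, p-values measure how far the change from G98 to L11 varies between pairs. Within a stage they measure the spread between libraries. At L11, T82133 and T82157 each enter with an R1 and an R2 library and no sow term.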

Additional observations from a re-analysis of the deposited data

Results flagged for a closer look

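Of the 8 genes, 3 changed differently between stages in R2 and R1, by the test of the difference itself in one fit over 26 pairs (edgeR). The same test called 20.9% of all genes. SREBF2 fell less in R2, by 0.19 log2 units, a call lost with no filter on low counts (edgeR, adjusted p = 0.0626). SREBF1 was lower at L11 in 13 of 14 R1 pairs and higher in 9 of 12 R2 pairs, a difference of 0.41. INSIG1 differed by 1.28, with 8 of 14 R1 pairs and 12 of 12 R2 pairs higher at L11. The stage change was also higher in R2 for 6 of 6 plasma cell, 4 of 8 erythroid and 1 of 6 macrophage markers, and their part was not tested. In 48 checks of a gene within a small group of libraries, 0 found a library far from the rest of its group. The checks left out the smallest groups and put R1 and R2 together, so a gap between replicates could hide a library. They did not flag T83888, and they do not show that no library stood apart.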

How the results depend on the processing

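The 176 tests of a gene were repeated under 1032 combinations with an alternative, and 1003 kept their direction and side of the threshold, 3 lost a call, 9 gained one and 17 changed sign, all 17 uncalled before and after. With all 3 factors and the replicate block, the values that changed sign were for rank SQLE (0.018 at G98, 0.086 at L11) and INSIG1 (0.13 at G98), for parity INSIG1 (−0.069 at L11), ABCA1 (−0.089 at G98), IDI1 (0.015 at L11) and HMGCS1 (0.069 at L11), and for housing SREBF2 (0.035 at L11) and INSIG1 (−0.0084 at G98). With the replicate block they were INSIG1 (rank 0.12 and parity 0.044, at G98) and SREBF1 (rank at G98, 0.0071). Without the repeat libraries at L11 they were HMGCS1 (rank 0.012, parity 0.0025) and SREBF2 (housing 0.0028). The E minus C difference of SREBF2 was −0.0040 with DESeq2's size factors and −0.0012 without sow T83888. On leaving out a pair, 801 of 832 tests kept both, 8 lost and 6 gained a call and 17 uncalled values changed sign: ABCA1 for stage (−0.057 to 0.036), HMGCS1 in R2 (−0.086 to 0.050), IDI1 in R1 (−0.066 to 0.0095) and INSIG1 in R1 (−0.072 to 0.038). On leaving out a pair, 4 to 5 genes were called for stage over all pairs, in R1 and in R2, and 3 to 4 for the difference between replicates. At a threshold of 0.1, 4 genes in place of 2 were called for stage in Sub sows, 3 in place of 2 in Int sows and 4 in place of 3 in HP sows. For stage over all pairs 5 in place of 4 were called, and for the difference between replicates in the stage change 4 in place of 3. Within G98, 4 in place of 3 were called for replicate and 1 (SREBF2) in place of 0 for rank. DESeq2 also called 1, SREBF2, for rank at G98. The replicate block changed no call of the 8 genes for parity, housing or rank (SREBF2, rank at G98, −0.27, adjusted p = 0.0780). Counts over all genes moved more. For parity at G98, 180 became 459 in DESeq2, 357 with the replicate block and 2 with all 3 factors and the block. At L11, 22 became 61, 37 and 0, and 12 without the repeat libraries. Housing at G98 went from 1 to 3 in DESeq2. Rank at G98 went from 0 to 218 in DESeq2 and 9 with erythroid genes left out of the scaling, and at L11 from 0 to 59 in DESeq2 and 3 with the block. The cause was not tested. Limits are the 8 subordinate sows per stage, the overlap of rank with parity, and stage sharing its library series.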

Other observations

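Sows T82133 and T82157 gave an L11 library in each replicate and their values are set side by side here, not tested. INSIG1 was 69.6 CPM in R1 and 168 in R2 for T82133, and 31.2 and 177 for T82157. SREBF1 was 64.7 and 91.6 CPM, and 61.5 and 89.4. SREBF2 was 162 and 245 CPM in T82133 and 206 and 201 in T82157, and FASN was 107 and 106, and 92.2 and 103. INSIG1 and SREBF1 were higher in R2 in both animals, the direction of the comparison over all sows. These libraries are part of that comparison, so they are not a separate check of it. For INSIG1 every L11 library of R2 lay above every L11 library of R1, which already fixes the order within each of these sows. Each sow was also Int in R1 but Dom in R2, so rank changed along with the round.

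The stage change of HMGCS1, IDI1 and INSIG1 by housing also looked different in R1 and R2. INSIG1 was higher at L11 in 6 of 7 C pairs and 2 of 7 E pairs in R1, and in 6 of 6 and 6 of 6 in R2. In R1, HMGCS1 was higher at L11 in 4 of 7 C pairs and 0 of 7 E pairs, and IDI1 in 6 of 7 and 1 of 7. In R2, HMGCS1 was higher in 3 of 6 C pairs and 3 of 6 E pairs, and IDI1 in 6 of 6 and 4 of 6. The third sterol enzyme, SQLE, was higher in 0 of 7 C and 0 of 7 E pairs in R1, so these counts cannot show a split. Its median log2 change in R1 was −0.18 in C pairs (−0.52 to −0.031) and −0.67 in E pairs (−1.39 to −0.31). That is the direction of the R1 medians of HMGCS1 (0.084 in C, −0.79 in E) and IDI1 (0.18 in C, −0.34 in E). In R2 SQLE was higher in 1 of 6 and 3 of 6. ABCA1 in R2 was higher in 1 of 6 C pairs and 6 of 6 E pairs, and in R1 in 3 of 7 and 2 of 7. These splits were picked from those of all 8 genes and were not tested within a replicate. Over both replicates, 0 of 12349 genes were called for the E minus C difference in stage change.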
